A study of Mus musculus with 9 samples.

Results

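Kinesins, cytoplasmic dynein, dynactin and the tubulins that form their track were followed at the mRNA level in 3 immortalized mouse striatal cell lines. Members were taken by symbol from the deposited table of gene counts. They are the rows that start with Kif, Kifc, Klc, Dync, Dctn, Tuba or Tubb and a digit, Kifap3, and the dynein light chains Dynll, Dynlrb and Dynlt with a digit, without Tubb3 and pseudogene symbols. This gave 84 of 36410 rows. They hold 22 transport kinesins, light chains and accessory subunits, 13 mitotic kinesins, 11 other kinesins, 16 subunits of cytoplasmic dynein, 6 of dynactin, 7 alpha-tubulins, 7 beta-tubulins and 2 rows that match by name alone. These are Kif1bp, a kinesin-binding protein with no motor domain, and Kif16bos, an RNA transcribed opposite to Kif16b.

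The control line (STHdhQ7/Q7) carries 7 glutamine repeats on both alleles of Htt exon 1, the HD-het line (STHdhQ7/Q111) carries 7 and 111, and the HD-homo line (STHdhQ111/Q111) carries 111 on both. The labels give the strain as C57/BL6 for every library, and the cells are described in the study as neuronal cells derived from mouse embryos. Each genotype is 1 immortalized line with 3 replicate libraries, and an effect of the genotype cannot be told apart from one of the line. Nothing in the labels says that the replicates came from separate cultures, and the p-values measure only the spread between these libraries, which may be technical.

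Kinesins and cytoplasmic dynein are ATP-driven motors that walk along microtubules, which are polymers of alpha- and beta-tubulin. Most transport kinesins carry vesicles, organelles and RNA towards the plus end of the microtubule, while dynein, with dynactin as its cofactor, carries cargo towards the minus end. A separate set of kinesins acts in the spindle and in cytokinesis of dividing cells. Huntingtin, the protein that carries the glutamine repeat, is known as a scaffold for dynein, dynactin and kinesin-1 on moving vesicles.

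Libraries held between 29507665 and 41197931 counts. Levels are given as normalized counts per megaread (CPM), after scaling by edgeR's TMM factors of 0.984 to 1.03. A count of 3, taken as the smallest that shows a gene, corresponds to between 0.0710 and 0.101 CPM, a floor that covers counting error only. Replicates differed by more than counting noise in every pair, from 2.23 times the counting variance between control libraries 1 and 2 to 40.3 times between HD-homo libraries 2 and 3. The neuronal label was checked against markers. Of 12 markers of striatal neurons, Drd1 was at 0 in every library, and Drd2, Gad1 and Rbfox3 averaged at most 0.0541 CPM in every line. Ppp1r1b was at most 0.403 CPM in any library. Foxp1 and Map2 were well expressed, with 93.8 and 62.9 CPM in control cells. The 12 summed to between 143 and 170 CPM in control, 170 and 181 in HD-het and 217 and 257 in HD-homo libraries. Of 5 tested, 2 were higher (40%, all genes 29.6%) and 0 lower (all genes 28.9%) in HD-homo against control cells. HD-het against control cells gave 2 higher (40%, all genes 33.8%) and 1 lower (20%, all genes 31.4%). Penk was called higher in HD-homo and lower in HD-het cells. The 7 mesenchymal markers summed to between 8261 and 8730 CPM in control libraries, between 12730 and 13591 in HD-het and between 10323 and 11255 in HD-homo, sums made up mostly of Col1a1 and Vim. Of 6 of these markers tested, 3 were higher (50%, all genes 33.8%) and 3 lower (50%, all genes 31.4%) in HD-het against control cells. HD-homo against control cells gave 4 higher (66.7%, all genes 29.6%) and 1 lower (16.7%, all genes 28.9%). Col1a2, lower in HD-het and higher in HD-homo cells, averaged 73.4 CPM in control, 3.15 in HD-het and 1494 in HD-homo cells. The sums of 5 astrocyte, 5 oligodendrocyte and 5 microglia markers were at most 17.8, 2.86 and 51.8 CPM in any library, with Mog and Aif1 at 0 throughout. The part of these markers in the results below was not tested. In bulk RNA, fewer cells of a type and less RNA per cell cannot be told apart.

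Of the 84 members, 77 had enough counts for edgeR's filter and entered the comparisons. The other 7 were Dync1i1, Dynlrb2, Kif2b, Kif6, Kif12, Kif17 and Kif16bos, of which Kif12 and Kif16bos had 0 counts in every library. Kif17, a motor known from dendrites and cilia, reached at most 0.337 CPM, and Dync1i1, the dynein intermediate chain typical of neurons, at most 0.244 CPM.

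Promoters of the mitotic kinesins are shown first, since this class is set against the transport motors below. The cell cycle homology region (CHR) is a promoter element of genes transcribed late in the cell cycle, and was searched here as TTTGAA or TTTAAA on either strand. RefSeq promoters of GRCm38.p6 run from 250 bases before a gene's start to 50 bases after it, and 65 of the 84 members were matched, with 72 promoters. The word was found in 11 of 12 promoters of mitotic kinesins, in 1 of 17 of transport kinesins (Kif1a), and in 27.6% of all 32851 promoters in the table. Within 50 bases on either side of the start, a window chosen after the matches were seen, it stood in 10 of the 12 and in 8.28% of all promoters. The CCAAT box, searched as CCAAT on either strand, was in 8 of 12 promoters of mitotic kinesins, in 7 of 17 of transport kinesins and in 37.4% of all. These are matches of letters, not tested sites.

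The promoter that lacks the word is that of Kif18a, and Kif20a has no sequence shown. For 4 mitotic kinesins described below, windows are printed 5′ to 3′ on the strand of the gene, from 70 bases before the start to 20 bases after it, with the CHR word in capitals. They lie on GRCm38.p6 at chr19:37376312-37376401 on the plus strand for Kif11, chr9:122951011-122951100 on the plus strand for Kif15, chr19:34922288-34922377 on the plus strand for Kif20b and chr9:61946780-61946869 on the minus strand for Kif23. The word begins 19 bases before the start in both Kif11 and Kif15, and at transcribed base 3 in Kif23. In Kif20b it occurs as 2 adjoining copies, of which the first begins at transcribed base 8.
Kif11: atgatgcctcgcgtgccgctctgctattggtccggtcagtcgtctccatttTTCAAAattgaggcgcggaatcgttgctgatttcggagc
Kif15: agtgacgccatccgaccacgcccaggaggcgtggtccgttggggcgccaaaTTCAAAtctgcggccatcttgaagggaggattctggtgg
Kif20b: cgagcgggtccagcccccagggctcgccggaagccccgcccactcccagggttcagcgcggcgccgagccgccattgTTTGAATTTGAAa
Kif23: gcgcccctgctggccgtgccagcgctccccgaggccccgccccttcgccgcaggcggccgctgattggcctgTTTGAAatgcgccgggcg

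Levels between genes were compared per kilobase of merged exons. In control cells Tuba1b stood first with 782 CPM per kilobase, followed by Tuba1a with 696, Tuba1c with 530 and Tubb5 with 490. Per kilobase, the most abundant motor subunit was the roadblock light chain Dynlrb1 with 74.1, and the kinesin heavy chains with the highest values were Kif20a with 46.4, Kif1c with 35.4 and Kif5b with 34.5. The order depends on the length used: per kilobase of the longest transcript, Kif23 had 54.9, Kif20a 54.8, Kif5b 45.6, Kif11 40.2 and Kif1c 38.5, and Tubb5 with 615 stood before Tuba1c with 612. Of the dynactin subunits, Dctn3 and Dctn2 had 41.7 and 40.9 CPM per kilobase. Kinesins known from neurons differed in level in control cells. Kif1a, which carries synaptic vesicle precursors, had 0.0727 CPM per kilobase and Kif5a 0.218, whereas Kif5c had 7.03.

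In HD-homo cells, 41 of the 77 tested members differed from control cells, a share of 53.2% beside 58.6% of all 13508 genes tested by edgeR's quasi-likelihood test. Of these, 22 were higher, against 29.6% of all genes, and 19 were lower, against 28.9%. In HD-het cells, 47 members differed from control, or 61.0% beside 65.1% of all genes, with 27 higher (all genes, 33.8%) and 20 lower (all genes, 31.4%). HD-homo differed from HD-het cells in 46 members, or 59.7% beside 71.6% of all genes, with 24 higher (all genes, 36.0%) and 22 lower (all genes, 35.6%). In both comparisons with control cells the share was near that of all genes, and the 3 comparisons share libraries.

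**Figure D1:**
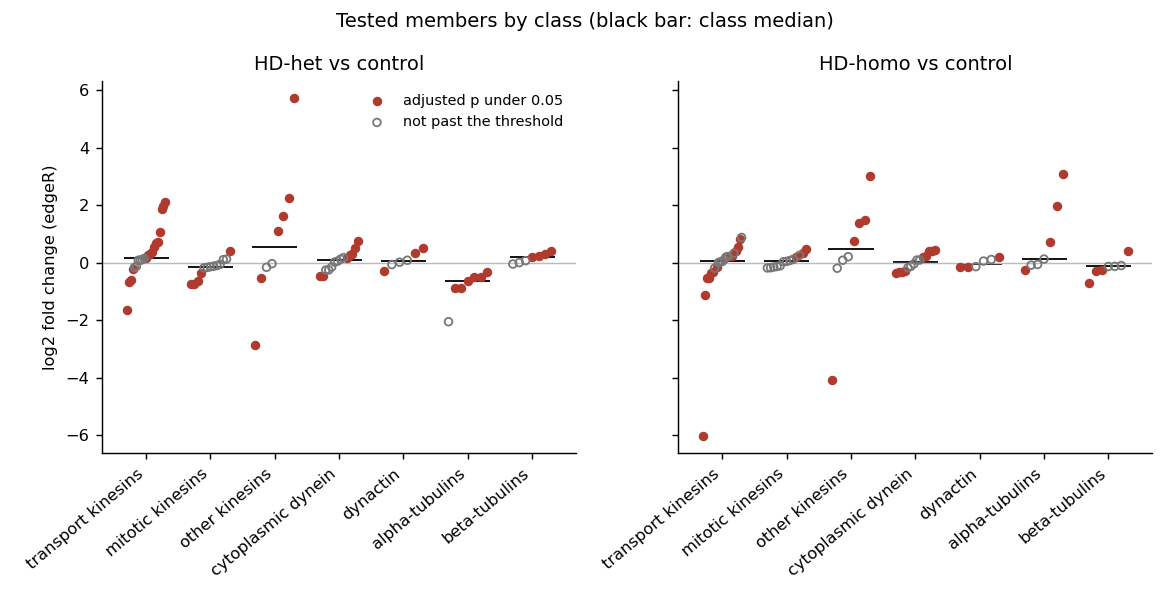
log2 fold changes of the tested members by class, for HD-het against control cells (left) and HD-homo against control cells (right), from edgeR. Each point is 1 gene, red where the adjusted p was under 0.05, and the black bar is the class median; Kif1bp is not drawn, and both panels share the control libraries. Alpha-tubulins lie below 0 in HD-het cells, and the lowest point in HD-homo cells is Kif5c at -6.04. The values of Kif26a (highest in the left panel) and Tuba3a (highest in the right panel) rest on at most 2 counts in each control library and depend on the prior count.

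Among the transport kinesins, 5 of 21 tested members were higher (23.8%, all genes 29.6%) and 7 lower (33.3%, all genes 28.9%) in HD-homo than control cells. The median log2 fold change was 0.04 beside 0.01 for all genes. HD-het against control cells gave 11 higher (52.4%, all genes 33.8%) and 4 lower (19.05%, all genes 31.4%), with a median of 0.16 beside 0.03 for all genes. HD-homo against HD-het cells gave 4 higher (19.05%, all genes 36.0%) and 10 lower (47.6%, all genes 35.6%), with a median of -0.27 beside 0.00.

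Kinesin-1 is a pair of heavy chains, Kif5a, Kif5b or Kif5c, with 2 light chains of the Klc family. Kif5c (chromosome 2, 49619298 to 49774778 on GRCm38), a heavy chain enriched in neurons, was at 53.0, 53.1 and 44.4 CPM in the control libraries, at 47.4, 49.8 and 36.9 in HD-het and at 0.582, 1.14 and 0.477 in HD-homo. The HD-homo libraries lay far below all others, whereas those of control and HD-het cells overlapped. Kif5c was 68.5-fold lower in HD-homo than control cells (log2 fold change -6.04 ± 0.22 (SE), adjusted p = 1.7e-09), and -0.17 ± 0.15 in HD-het, with an adjusted p of 0.342. The transcript was still detected in HD-homo cells, with 19, 48 and 16 counts.

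Kif5b, the heavy chain made in most tissues, was at 270, 292 and 264 CPM in control, at 388, 443 and 377 in HD-het and at 200, 239 and 225 in HD-homo libraries. No library of 1 line overlapped with those of another. It rose in HD-het cells, by 0.55 ± 0.08 on the log2 scale (adjusted p = 0.00012), and fell in HD-homo cells, by 0.31 ± 0.08 (adjusted p = 0.0066). Kif5a, the third heavy chain, was at 1.93, 1.90 and 0.744 CPM in control, at 3.58, 3.69 and 2.34 in HD-het and at 2.08, 2.08 and 1.16 in HD-homo libraries.

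The light chain Klc1, which links the heavy chains to cargo, was at 126, 124 and 128 CPM in control, at 146, 133 and 143 in HD-het and at 102, 93.6 and 98.0 in HD-homo libraries. Its order over the lines was that of Kif5b, with HD-homo lowest (log2 fold change against control -0.36 ± 0.06, adjusted p = 0.00020) and HD-het highest. The difference between HD-het and control cells was small, 0.16 ± 0.06 with an adjusted p of 0.0256, and did not pass the threshold without control library 1 or 2 or HD-het library 1 or 3. Klc3, a light chain known from spermatids, was at 5.29, 4.76 and 5.14 CPM in control, at 1.44, 1.62 and 1.83 in HD-het and at 7.11, 7.25 and 4.65 in HD-homo libraries. It fell in HD-het cells by 1.64 ± 0.19 on the log2 scale (adjusted p = 1.9e-05). In HD-homo cells its difference from control was 0.33 ± 0.17, with an adjusted p of 0.114, and it passed the threshold without HD-homo library 3.

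Kif1b, a kinesin-3 that carries mitochondria and synaptic vesicle precursors, was at 205, 207 and 194 CPM in control, at 262, 272 and 254 in HD-het and at 138, 157 and 126 in HD-homo libraries. The lines did not overlap, and Kif1b rose by 0.38 ± 0.08 in HD-het and fell by 0.52 ± 0.08 in HD-homo cells on the log2 scale (adjusted p = 0.0010 and 0.00012). The product of Kif1bp is known to bind this motor. Its mRNA fell in both HD lines, from 50.4, 48.5 and 50.2 CPM in control to 39.8, 38.8 and 37.1 in HD-het and 37.5, 40.9 and 36.7 in HD-homo libraries, by 0.36 and 0.37 on the log2 scale (adjusted p = 0.00036 and 0.00038).

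Kif21a and Kif21b, a pair of related kinesin-4 motors that slow microtubule growth, changed in opposite directions. Kif21b was at 8.65, 8.15 and 6.83 CPM in control, at 37.3, 36.9 and 28.3 in HD-het and at 3.31, 3.32 and 4.29 in HD-homo libraries. It rose by 2.12 ± 0.14 on the log2 scale in HD-het (adjusted p = 2.6e-07) and fell by 1.12 ± 0.15 in HD-homo cells (adjusted p = 8.6e-05). Kif21a was at 24.0, 25.5 and 25.3 CPM in control, at 16.9, 17.0 and 13.4 in HD-het and at 39.9, 50.1 and 43.2 in HD-homo libraries. It fell by 0.66 ± 0.11 in HD-het and rose by 0.84 ± 0.11 in HD-homo cells on the log2 scale (adjusted p = 0.00027 and 4.3e-05). For both genes the 3 lines did not overlap.

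Kif3a, a motor subunit of kinesin-2, which works in the cilium, was at 35.6, 37.5 and 36.3 CPM in control, at 40.2, 41.7 and 35.6 in HD-het and at 42.2, 49.0 and 37.9 in HD-homo libraries. Its increase in HD-homo cells, 0.24 ± 0.09 with an adjusted p of 0.0469, did not pass the threshold without any 1 of 7 libraries (control 1, 2 or 3, HD-het 1 or 2, or HD-homo 1 or 2).

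**Figure D2:**
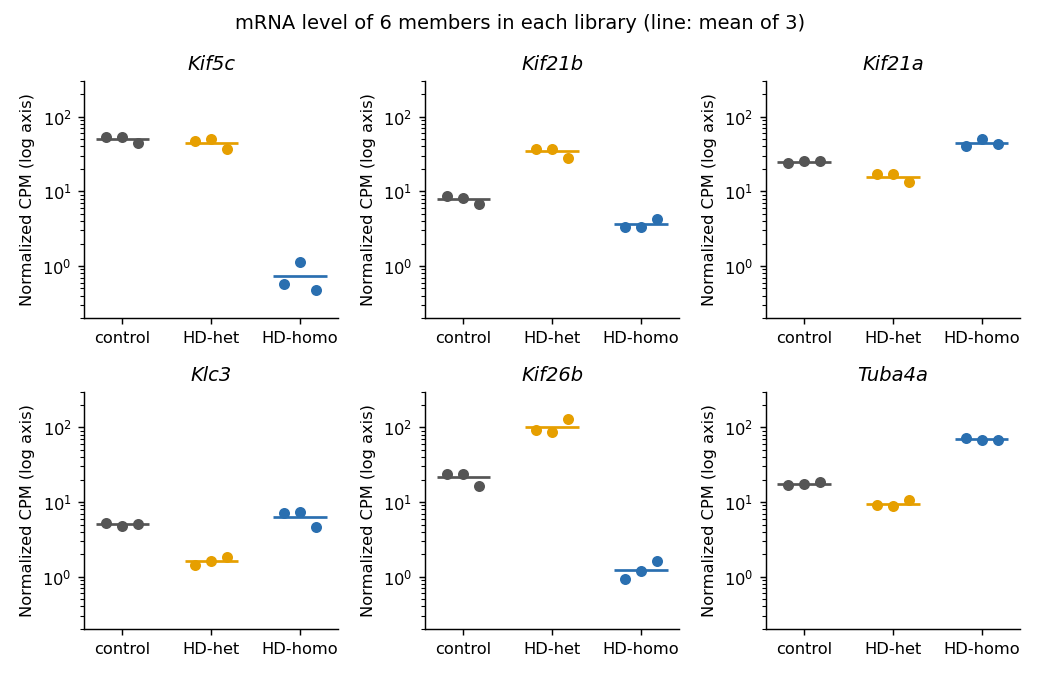
Normalized CPM on a log axis of Kif5c, Kif21b, Kif21a, Klc3, Kif26b and Tuba4a. Each point is 1 library and the line is the mean of the 3 libraries of a cell line. Kif5c is between 0.477 and 1.14 CPM in HD-homo cells and at or above 36.9 in all others; Kif21b and Kif26b are highest in HD-het cells, and Tuba4a and Kif21a in HD-homo cells.

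The mitotic kinesins gave 3 higher (23.1%, all genes 29.6%) and 0 lower (all genes 28.9%) of 13 tested in HD-homo against control cells. The median log2 fold change was 0.04. HD-het against control cells gave 1 higher (7.69%, all genes 33.8%) and 4 lower (30.8%, all genes 31.4%), with a median of -0.14. The share lower was thus near that of all genes. HD-homo against HD-het cells gave 7 higher (53.85%, all genes 36.0%) and 1 lower (7.69%, all genes 35.6%), with a median of 0.23 beside 0.00 for all genes. Kifc1 and Kifc5b, both among the 13, share 39.7% and 37.4% of their 50-base words with other genes, mostly with each other. Their counts depend on how shared reads were assigned, and both enter the mitotic sum and ratio below.

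Kif11, the motor that pushes spindle poles apart, was at 191, 205 and 186 CPM in control, at 112, 119 and 120 in HD-het and at 192, 235 and 186 in HD-homo libraries. The HD-het libraries lay below all others, and the decrease was 0.72 ± 0.09 on the log2 scale (log2 fold change -0.72, adjusted p = 2.1e-05). Kif20b, a motor of cytokinesis, had the same pattern, with 112, 133 and 102 CPM in control, 60.4, 73.9 and 74.5 in HD-het and 115, 140 and 99.8 in HD-homo libraries. Its log2 fold change was -0.73 ± 0.13 in HD-het cells (adjusted p = 0.00055), and 0.03 ± 0.13 in HD-homo cells with an adjusted p of 0.84. Kif23, the kinesin of the central spindle, was at 188, 193 and 179 CPM in control, at 144, 144 and 152 in HD-het and at 206, 219 and 152 in HD-homo libraries. It fell in HD-het cells by 0.35 ± 0.11 on the log2 scale (adjusted p = 0.0159), which did not pass the threshold without control library 2. Its difference in HD-homo cells, 0.04 with an adjusted p of 0.746, passed the threshold without HD-homo library 3, at 0.18.

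Kif15, which can take over from Kif11 in the spindle, was at 58.0, 63.3 and 56.9 CPM in control, at 53.4, 60.1 and 52.8 in HD-het and at 78.1, 92.8 and 77.2 in HD-homo libraries. The HD-homo libraries were above all others, by 0.48 ± 0.08 against control on the log2 scale (adjusted p = 0.00056). Kif20a, a motor needed for abscission at the end of cytokinesis, was the 1 mitotic kinesin called higher in HD-het than control cells. It was at 207, 204 and 193 CPM in control, at 264, 251 and 282 in HD-het and at 248, 237 and 209 in HD-homo libraries, a log2 fold change of 0.40 ± 0.07 for HD-het against control cells (adjusted p = 0.00055). Its differences of 0.20 between HD-homo and control cells (adjusted p = 0.0337) and of -0.20 between HD-homo and HD-het cells (adjusted p = 0.0291) did not pass the threshold without some single libraries. For the first these were control 1, 2 or 3 and HD-homo 1 or 2, and for the second HD-het 1 or 3 and HD-homo 3.

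Summed over the class, transport kinesins were at 1381, 1405 and 1374 CPM in control, at 1727, 1755 and 1616 in HD-het and at 1232, 1258 and 1226 in HD-homo libraries. Mitotic kinesins summed to 1278, 1337 and 1225 CPM in control, to 1116, 1120 and 1189 in HD-het and to 1408, 1491 and 1192 in HD-homo libraries. The 3 lines did not overlap in the transport sum, whereas HD-homo library 3 lay below all control libraries in the mitotic sum.

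The ratio of the mitotic to the transport sum was 0.925, 0.952 and 0.892 in control, 0.646, 0.638 and 0.735 in HD-het and 1.14, 1.18 and 0.972 in HD-homo libraries. It was thus lowest in HD-het and highest in HD-homo cells, with means of 0.923 ± 0.0301 (SD, n = 3), 0.673 ± 0.0540 and 1.0999 ± 0.113, and the libraries of the 3 lines did not overlap. Per kilobase, HD-homo library 3 (1.141) fell below control library 2 (1.148), so that these 2 lines overlapped. On the log2 scale HD-het cells were 0.46 below and HD-homo cells 0.25 above control cells, as a description of these classes with no test. A list of 22 proliferation markers had 10 higher and 1 lower in HD-homo against control cells, beside 29.6% and 28.9% of all genes. In HD-het against control cells it had 3 higher and 12 lower, beside 33.8% and 31.4% of all genes. Its summed level was between 5184 and 5261 CPM in control, between 4405 and 4666 in HD-het and between 5465 and 5889 in HD-homo libraries, without overlap of the lines, unlike the mitotic sum. The cyclin Ccnb2 went up in both HD lines, from 37.2, 36.5 and 39.1 CPM to 109, 102 and 109 in HD-het and 97.7, 106 and 75.5 in HD-homo libraries (adjusted p = 4.8e-07 and 1.1e-06). The replication gene Mcm3 fell in HD-het cells, from 333, 327 and 383 to 188, 178 and 213 CPM (adjusted p = 3.4e-05). Birc5, the survivin gene, fell in both, from 147, 142 and 146 CPM to 100, 93.6 and 109 in HD-het and 132, 132 and 114 in HD-homo libraries (adjusted p = 7.4e-05 and 0.0342). Whether the lines differed in the share of dividing cells was not tested.

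**Figure D3:**
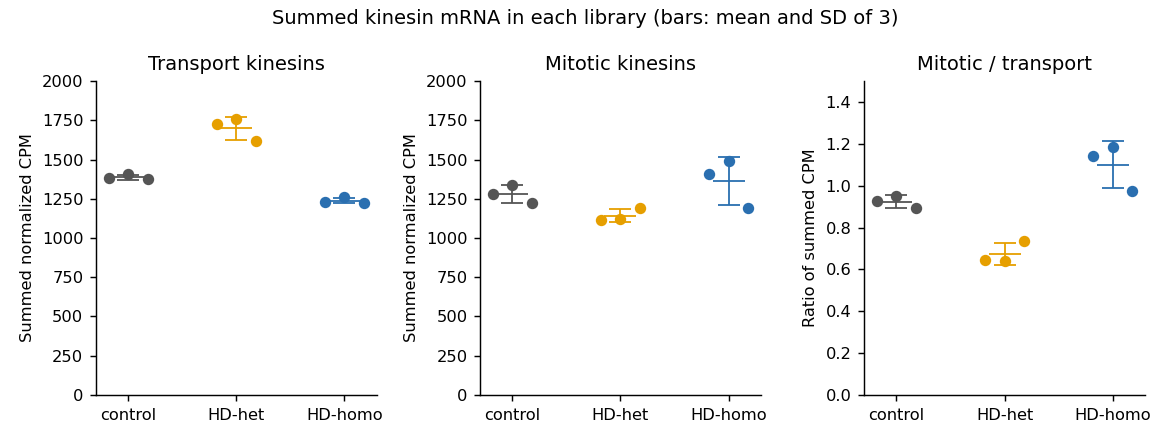
Summed normalized CPM of the transport kinesins (left) and mitotic kinesins (middle), and the ratio of the mitotic to the transport sum (right). Points are libraries, and bars are the mean and SD of 3 libraries. The ratio is between 0.638 and 0.735 in HD-het, between 0.892 and 0.952 in control and between 0.972 and 1.18 in HD-homo cells.

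Of the other kinesins, 8 of 11 were tested. In HD-homo against control cells 4 were higher (50%, all genes 29.6%) and 1 lower (12.5%, all genes 28.9%). HD-het against control cells gave 4 higher (50%, all genes 33.8%) and 2 lower (25%, all genes 31.4%). Kif26b, a kinesin-like protein thought to lack motor activity, was at 23.7, 23.9 and 16.3 CPM in control, at 92.8, 86.0 and 127 in HD-het and at 0.920, 1.18 and 1.64 in HD-homo libraries. It was 4.79-fold higher in HD-het and 17.1-fold lower in HD-homo than control cells (log2 fold changes 2.26 ± 0.18 and -4.09 ± 0.25, adjusted p = 1.2e-06 and 9.3e-08). Between the HD lines the gap was 81.8-fold. Kif2a, a microtubule depolymerase that also trims axon branches, was at 141, 149 and 140 CPM in control, at 95.7, 101 and 97.8 in HD-het and at 151, 154 and 151 in HD-homo libraries. It fell in HD-het cells by 0.55 ± 0.05 on the log2 scale (adjusted p = 3.5e-06).

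Kif7, a regulator of Hedgehog signalling at the tip of the cilium, was between 13.9 and 19.7 CPM in all libraries and did not pass the threshold in any comparison (adjusted p of 0.143 to 0.795). Under an alternative setting, however, Kif7 did pass it in HD-homo against control cells. Kif27, its paralog, rose from 0.280, 0.416 and 0.406 CPM in control to 1.21, 1.04 and 1.17 in HD-het and 0.950, 1.28 and 0.835 in HD-homo libraries (adjusted p = 0.00019 and 0.00048). Kif19a, a depolymerase of motile cilia, was at 0.622, 0.654 and 0.744 CPM in control, at 0.113, 0.0610 and 0.0899 in HD-het and at 0.981, 1.35 and 1.07 in HD-homo libraries. The HD-het values rest on 4, 2 and 3 counts. Its log2 fold change was -2.87 ± 0.33 in HD-het and 0.76 ± 0.21 in HD-homo cells (adjusted p = 1.9e-05 and 0.0097), and the increase did not pass the threshold with DESeq2.

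Cytoplasmic dynein is built around the heavy chain Dync1h1, with intermediate, light intermediate and light chains. Of 14 tested subunits, 5 were higher (35.7%, all genes 29.6%) and 4 lower (28.6%, all genes 28.9%) in HD-homo against control cells. HD-het against control cells gave 5 higher (35.7%, all genes 33.8%) and 2 lower (14.3%, all genes 31.4%). HD-homo against HD-het cells gave 3 higher (21.4%, all genes 36.0%) and 3 lower (21.4%, all genes 35.6%). Dync1h1 was at 586, 575 and 566 CPM in control, at 717, 702 and 656 in HD-het and at 487, 456 and 424 in HD-homo libraries. The lines did not overlap, and its log2 fold change was 0.26 ± 0.06 in HD-het and -0.34 ± 0.06 in HD-homo cells (adjusted p = 0.0034 and 0.00084).

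The other subunits of the same motor did not all have this order. The light intermediate chain Dync1li1 was at 70.6, 69.5 and 67.2 CPM in control, at 69.2, 70.9 and 70.3 in HD-het and at 91.6, 95.3 and 96.0 in HD-homo libraries, an increase of 0.45 ± 0.05 in HD-homo cells (adjusted p = 1.6e-05). The intermediate chain Dync1i2 was at 152, 154 and 146 CPM in control, at 183, 190 and 186 in HD-het and at 165, 181 and 167 in HD-homo libraries, higher in both HD lines (adjusted p = 0.00045 and 0.0122). Dynll1, a light chain also found in many other complexes, was between 160 and 200 CPM in all libraries, and its adjusted p was 0.288 in HD-homo and 0.152 in HD-het cells against control. Under an alternative setting, however, Dynll1 passed the threshold in HD-homo against control cells. Dynlt3, a light chain of the Tctex family, was at 54.1, 55.8 and 54.8 CPM in control, at 87.4, 101 and 87.0 in HD-het and at 51.3, 57.3 and 51.4 in HD-homo libraries. Only the HD-het libraries stood apart, by 0.74 ± 0.07 on the log2 scale against control (adjusted p = 4.7e-06).

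Dync2li1, a light intermediate chain of the dynein that works inside cilia, fell from 14.1, 13.1 and 12.6 CPM in control to 9.69, 11.5 and 9.93 in HD-homo libraries (log2 fold change -0.35 ± 0.10, adjusted p = 0.0096). It was at 14.6, 14.2 and 12.5 CPM in HD-het libraries. The Dynlt1 copies share between 63.0% and 88.6% of their 50-base words with other genes, so that their counts depend on how shared reads were assigned. Of these, Dynlt1b was lower in HD-het cells than in control (adjusted p = 0.0101) and than in HD-homo cells (adjusted p = 0.0028). Dynlt1c was lower in HD-het cells (adjusted p = 0.0057), and in HD-homo cells at an adjusted p of 0.0352 that did not pass the threshold without control library 1, 2 or 3 or HD-homo library 1 or 3.

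Dynactin is the cofactor that lets dynein travel far and hold its cargo. All 6 subunits were tested. In HD-homo against control cells 1 was higher (16.7%, all genes 29.6%) and 2 were lower (33.3%, all genes 28.9%). HD-het against control cells gave 2 higher (33.3%, all genes 33.8%) and 1 lower (16.7%, all genes 31.4%). Dctn1, the p150Glued subunit that binds microtubules, was at 156, 155 and 168 CPM in control, at 208, 191 and 204 in HD-het and at 175, 163 and 178 in HD-homo libraries. The HD-het libraries were above all others (log2 fold change 0.33 ± 0.06, adjusted p = 0.00047), while those of HD-homo and control cells overlapped. Dctn4, a subunit of the pointed end, was at 63.6, 60.0 and 62.6 CPM in control, at 85.4, 90.4 and 89.2 in HD-het and at 53.8, 56.2 and 57.0 in HD-homo libraries. Its increase in HD-het cells was 0.51 ± 0.05 on the log2 scale (adjusted p = 8.9e-06). The decrease in HD-homo cells, 0.16 ± 0.05 (log2 fold change -0.16, adjusted p = 0.0265), did not pass the threshold without control library 1 or 3 or HD-homo library 1.

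Of the remaining dynactin subunits, Dctn3 did not pass the threshold in HD-homo or HD-het cells against control (adjusted p = 0.589 and 0.878). Dctn2, or dynamitin, fell from 194, 192 and 202 CPM in control to 179, 179 and 173 in HD-homo libraries (adjusted p = 0.0263), and was at 190, 180 and 191 in HD-het. Dctn5 rose from 36.0, 36.1 and 37.2 CPM in control to 40.9, 43.7 and 41.1 in HD-homo libraries (adjusted p = 0.0198). Neither call held without control library 1, nor that of Dctn2 without control 3 or HD-homo 3, nor that of Dctn5 without control 2 or HD-homo 2. Dctn6 fell from 35.8, 38.0 and 38.9 CPM in control to 31.2, 31.0 and 29.9 in HD-het libraries, without overlap (log2 fold change -0.29 ± 0.07, adjusted p = 0.0025).

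Microtubules are built of alpha- and beta-tubulin in equal numbers, each made from several isotype genes. Coding regions of these genes are so alike that reads can fit more than 1 of them. As an example of the likeness, the last 60 coding bases, stop codon included, are printed for 1 pair. They were taken from GENCODE release 21 on GRCm38 and lie in exon 4 of each gene, on the minus strand, at chr13:34074468-34074527 for Tubb2a and chr13:34127471-34127530 for Tubb2b. Capitals mark the bases that differ within the pair. Over the whole coding region, Tubb2a and Tubb2b differ at 47 of 1338 bases (96.5% identity), with 3 in the stretch printed.
Tubb2a: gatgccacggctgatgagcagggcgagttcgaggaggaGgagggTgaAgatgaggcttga
Tubb2b: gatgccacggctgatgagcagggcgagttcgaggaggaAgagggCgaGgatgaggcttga

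Over whole transcripts, 72.9% of the 50-base words of Tuba1a, 66.7% of Tuba1b, 52.7% of Tuba1c, 49.6% of Tubb2a, 36.9% of Tubb2b and 37.8% of Tubb4b occur in another gene. Tuba4a shares 0.807% of its words, Tubb5 0.0892% and Tubb6 none. The split of reads among the first group is therefore uncertain.

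Of the 7 alpha-tubulins, 6 were lower (85.7%, all genes 31.4%) and 0 higher (all genes 33.8%) in HD-het than control cells, with a median log2 fold change of -0.63. The 7 summed to 4019, 3944 and 3921 CPM in control, to 2922, 2765 and 3003 in HD-het and to 3851, 3594 and 3586 in HD-homo libraries, so that the HD-het libraries were below all others. In HD-homo against control cells 3 were higher (42.9%, all genes 29.6%) and 1 lower (14.3%, all genes 28.9%). Tuba1b was at 1481, 1447 and 1470 CPM in control, at 1039, 973 and 1082 in HD-het and at 1475, 1362 and 1373 in HD-homo libraries, a log2 fold change of -0.51 ± 0.06 for HD-het against control cells (adjusted p = 2.7e-05). Tuba1c had the same order, with 1236, 1216 and 1187 CPM in control, 859, 825 and 892 in HD-het and 1198, 1112 and 1119 in HD-homo libraries (adjusted p = 2.0e-05 in HD-het cells). Tuba1a, the isotype of young neurons, was lower in both HD lines, with 1275, 1255 and 1237 CPM in control, 1010, 952 and 1012 in HD-het and 1094, 1040 and 1016 in HD-homo libraries (adjusted p = 0.00028 and 0.0023).

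Tuba4a (chromosome 1, 75214228 to 75219865 on GRCm38), an alpha-tubulin whose gene does not encode the usual last tyrosine, was at 16.9, 17.3 and 18.5 CPM in control, at 9.11, 8.96 and 10.6 in HD-het and at 72.5, 68.5 and 67.2 in HD-homo libraries. It fell by 0.88 ± 0.08 in HD-het and rose by 1.98 ± 0.08 in HD-homo cells on the log2 scale (adjusted p = 3.6e-06 and 2.8e-09). Tuba8 had the same order at a lower level, with 1.34, 1.67 and 1.52 CPM in control, 0.761, 0.762 and 0.928 in HD-het and 2.30, 2.27 and 2.86 in HD-homo libraries (adjusted p = 0.0019 and 0.0039). Tuba3a, which shares 33.6% of its words with other genes, had at most 2 counts in any control or HD-het library and 14, 18 and 19 in the HD-homo libraries. Set against a floor of 3 counts per library, its level in HD-homo cells was at least 5.01-fold higher than in control and at least 5.35-fold higher than in HD-het cells.

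The beta-tubulins did not fall with the alpha-tubulins in HD-het cells. There, 4 of 7 were higher (57.1%, all genes 33.8%) and 0 lower (all genes 31.4%), with a median log2 fold change of 0.21. HD-homo against control cells gave 1 higher (14.3%, all genes 29.6%) and 3 lower (42.9%, all genes 28.9%). Their sum was 2687, 2662 and 2650 CPM in control, 2880, 2746 and 2913 in HD-het and 2687, 2407 and 2547 in HD-homo libraries. The most abundant one, Tubb5, was at 1638, 1615 and 1633 CPM in control, at 1596, 1522 and 1611 in HD-het and at 1557, 1378 and 1532 in HD-homo libraries. Its adjusted p was 0.0993 in HD-homo and 0.529 in HD-het cells.

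Tubb4b, the isotype of cilia and of most tissues, rose in both HD lines, from 429, 431 and 438 CPM in control to 498, 478 and 523 in HD-het and 609, 568 and 547 in HD-homo libraries (adjusted p = 0.0092 and 0.00012). Tubb6 was at 377, 374 and 353 CPM in control, at 497, 470 and 501 in HD-het and at 323, 276 and 297 in HD-homo libraries, with log2 fold changes of 0.41 ± 0.07 and -0.30 ± 0.07 (adjusted p = 0.00021 and 0.0023). Tubb2b, an isotype of migrating and growing neurons, had the same order. It was at 111, 108 and 104 CPM in control, at 134, 127 and 131 in HD-het and at 71.4, 64.2 and 60.3 in HD-homo libraries, with log2 fold changes of 0.29 ± 0.07 and -0.72 ± 0.07 (adjusted p = 0.0026 and 3.6e-06). Its near-copy Tubb2a was at 113, 113 and 104 CPM in control, at 135, 129 and 126 in HD-het and at 109, 106 and 93.2 in HD-homo libraries. Tubb2a passed the threshold in HD-het cells (adjusted p = 0.0095) and not in HD-homo cells (adjusted p = 0.238).

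Expressed as a share of the summed CPM per kilobase of its family, Tuba4a made up 0.235% ± 0.0142 (SD, n = 3) of alpha-tubulin mRNA in control, 0.174% ± 0.0110 in HD-het and 1.01% ± 0.0091 in HD-homo cells. Tuba1a accounted for 34.5%, 37.1% and 31.4% in the same order. Among the beta-tubulins measured here, which leave out Tubb3, Tubb4b made up 21.3% ± 0.410 in control, 22.5% ± 0.465 in HD-het and 29.1% ± 1.13 in HD-homo cells. Tubb6 accounted for 15.5%, 18.9% and 12.9%, and Tubb2b for 4.81%, 5.37% and 3.01%.

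**Figure D4:**
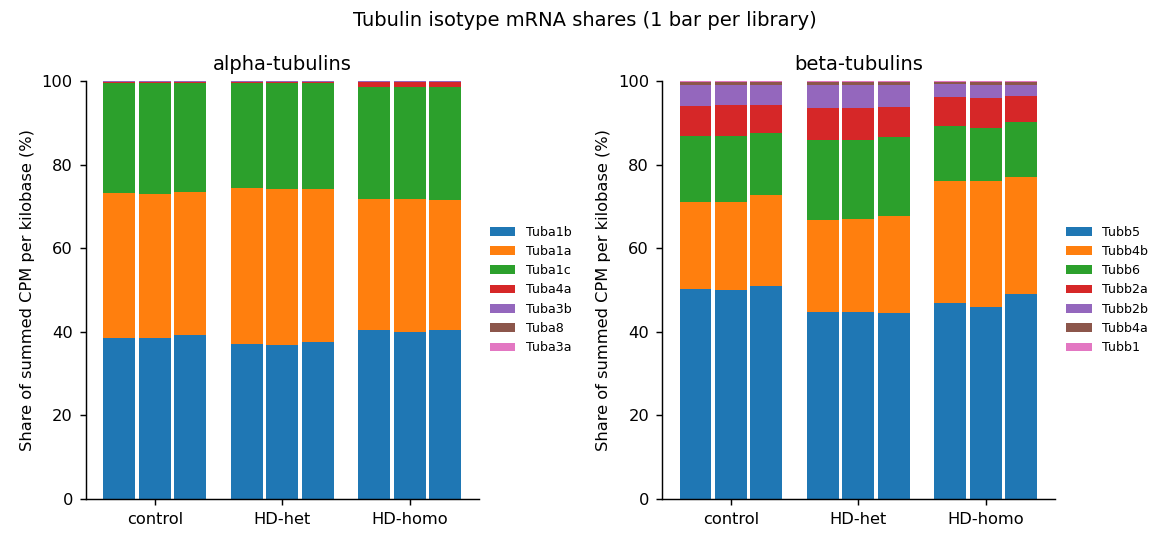
Share of each isotype in the summed CPM per kilobase of the alpha-tubulins (left) and of the beta-tubulins without Tubb3 (right), in percent, with 1 bar per library. Tuba1b, Tuba1a and Tuba1c fill nearly all of the alpha-tubulin bars, and Tubb4b takes a mean of 29.1% of the beta-tubulin bars in HD-homo cells against 21.3% in control cells.

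In all, 13 members were called in opposite directions in the 2 HD lines against the same control libraries, or 16.9% of the 77 tested beside 14.5% of all genes, a share near the background. Higher in HD-het and lower in HD-homo cells were the motor subunits Kif5b, Klc1, Kif1b, Kif21b and Dync1h1, the dynactin subunit Dctn4, the tubulins Tubb2b and Tubb6, and Kif26b. Lower in HD-het and higher in HD-homo cells were Kif21a, Kif19a, Tuba4a and Tuba8.

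Proteins that couple these motors to cargo, or that fold and modify tubulin, were followed as 2 further lists. Of 26 cargo adaptors and dynein regulators, 24 were tested. In HD-homo against control cells 3 were higher (12.5%, all genes 29.6%) and 11 lower (45.8%, all genes 28.9%), at a median log2 fold change of -0.17. HD-het against control cells gave 4 higher (16.7%, all genes 33.8%) and 13 lower (54.2%, all genes 31.4%), at a median of -0.20. The lower ones include Htt itself, the gene that carries the repeat, at 104, 103 and 93.0 CPM in control, at 61.8, 64.0 and 61.1 in HD-het and at 19.7, 21.7 and 19.2 in HD-homo libraries (log2 fold changes -0.68 ± 0.07 and -2.31 ± 0.07, adjusted p = 4.4e-06 and 3.4e-10). Hook1, an adaptor that activates dynein, was at 10.5, 9.93 and 11.2 CPM in control, at 2.06, 2.59 and 2.10 in HD-het and at 0.153, 0.166 and 0.119 in HD-homo libraries (log2 fold changes -2.23 ± 0.13 and -6.12 ± 0.19, adjusted p = 1.1e-07 and 4.3e-10). Ndel1, a regulator of dynein with Lis1, rose in both HD lines, from 75.1, 73.5 and 71.5 CPM to 122, 122 and 112 in HD-het and 84.5, 87.4 and 86.3 in HD-homo libraries (adjusted p = 1.1e-06 and 0.0038). Hook2 rose in HD-homo cells, from 10.8, 10.3 and 10.04 to 14.5, 12.4 and 13.6 CPM (adjusted p = 0.0043).

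Of 23 genes for tubulin folding and modification, 22 were tested. In HD-homo against control cells 6 were higher (27.3%, all genes 29.6%) and 5 lower (22.7%, all genes 28.9%). HD-het against control cells gave 7 higher (31.8%, all genes 33.8%) and 5 lower (22.7%, all genes 31.4%). Cct5, a subunit of the chaperonin that folds tubulin and actin, fell in HD-het cells, from 785, 786 and 810 to 364, 363 and 413 CPM (log2 fold change -1.06 ± 0.07, adjusted p = 3.1e-07). In HD-homo libraries it was at 794, 693 and 768 CPM, above every HD-het library. Vash1, a protease that removes the last tyrosine of alpha-tubulin, rose in HD-het cells, from 0.933, 0.952 and 0.879 to 3.81, 2.84 and 3.77 CPM (adjusted p = 1.6e-05). In HD-homo cells the deglutamylase gene Agbl5 rose from 4.95, 3.75 and 4.26 to 9.11, 9.02 and 5.64 CPM (adjusted p = 0.0016), and the glutamylase gene Ttll5 fell from 19.3, 18.6 and 18.9 to 13.7, 12.8 and 13.7 CPM (adjusted p = 0.00068).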

How the data were processed

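Total RNA of the 3 striatal cell lines was isolated, poly(A)-selected and made into directional libraries, 9 in all. The authors deposited 1 table of raw counts per gene and library, by symbol, without normalization. The submitters' processing notes name cutadapt, Bowtie 1.1.2, RSEM 1.3.0, DESeq2 and the builds GRCm38.p5 and mm10. Which program counted the genes, with which annotation and strand setting, is not given in the sources used here, and reads shared by paralogs or overlapping genes could be split or lost in that step. The values are whole numbers; 26 rows, kept in the fit, hold a date where the symbol should be. Protein and ribosome data were not analysed here.

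The analysis used edgeR 4.0.16 in R 4.3.3. Of 36410 rows, 13508 passed filterByExpr (minimum count 10, lines as groups). Libraries were scaled by TMM, and edgeR's quasi-likelihood fit took all 9 libraries together, with the line as the only term. The 3 pairs of lines were compared by two-sided tests with Benjamini-Hochberg adjustment over all 13508 genes, at a threshold of 0.05. SE is the log2 fold change divided by the root of the F statistic. Merged exons and 50-base words come from GENCODE release 21, in which all 84 members were matched, and promoters from RefSeq GRCm38.p6. The code of the fit was checked on simulated independent counts with the same dispersion for every gene. Such counts lack the uneven replicate spread of these libraries, so the check does not bear on the calls given here.

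The members and the gene lists were chosen with earlier results of these data known. Values of every library are given for anchor genes of each class and, in each class and comparison, for the called member with the largest increase and the largest decrease with a mean of at least 1 CPM in the higher line. The same rule of extremes, in each HD line against control, was used for the other lists. Class medians and sums are descriptions with no test. Alternatives were DESeq2 1.42.0 (Wald test, and its size factors in edgeR), library totals alone, other filters, only the 2 lines compared, a fold threshold, a replicate block and leaving out each library in turn. Leaving out the 3 libraries numbered 3 was added after seeing the data. Some sequences are not reported here.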

Additional observations from a re-analysis of the deposited data

Results flagged for a closer look

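The 13 members below were set aside because they were called in opposite directions in HD-het and HD-homo cells against the same control libraries by edgeR's quasi-likelihood test. Such opposite calls make up 14.5% of all genes tested. The values between the HD lines follow largely from this choice and are given as a description. As log2 fold changes of HD-homo against HD-het cells, the transport motors and light chain gave -0.86 for Kif5b, -0.52 for Klc1, -0.90 for Kif1b, -3.23 for Kif21b and 1.497 for Kif21a. The other kinesins gave -6.35 for Kif26b and 3.64 for Kif19a. In the dynein and dynactin subunits the differences were -0.60 for Dync1h1 and -0.67 for Dctn4. In the tubulins they were 2.86 for Tuba4a, 1.59 for Tuba8, -1.003 for Tubb2b and -0.71 for Tubb6. The call of Klc1 in HD-het cells was lost without control library 1 or 2 or HD-het library 1 or 3, and that of Dctn4 in HD-homo cells without control library 1 or 3 or HD-homo library 1.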

How the results depend on the processing

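When calls also had to reach 1 in size on the log2 scale, 8 members were called in HD-homo against control cells (5 higher, 3 lower), 10 in HD-het against control cells (8 higher, 2 lower) and 12 between the HD lines (6 higher, 6 lower). The share of all genes at this fold threshold is not given, so these counts cannot be set against a background. From sums per kilobase, the log2 difference in the mitotic to transport ratio was -0.36 in HD-het and 0.20 in HD-homo against control cells, with 1 HD-homo library below 1 control library, and 0.56 between the HD lines, the same directions as without length. Per kilobase of the longest transcript in place of merged exons, Tuba4a made up 0.286% of alpha-tubulin mRNA in control, 0.212% in HD-het and 1.23% in HD-homo cells. No value changed sign where it passed the threshold in either setting. Of 2136 recomputed values of 126 named results, 2077 kept their side of the threshold, 46 no longer passed it and 13 newly passed it. Some that passed it in neither setting changed sign. An example is Kif11 in HD-homo against control cells, with log2 fold changes from -0.0365 to 0.1375. The cause of these shifts was not tested. No pairing by replicate number was assumed, since the labels give none and the correlations of same-numbered deviations, between -0.0053 and 0.145, were not all over 0.1. As a hint from the data and not the design, 16 of 18 combinations of a library and another line had their highest correlation with the same number. With the replicate block, 43 members (23 higher, 20 lower) were called in HD-homo and 48 (28 higher, 20 lower) in HD-het against control cells, and 47 (24 higher, 23 lower) between the HD lines. Here too the share of all genes is not given. The block changed 1 named call, that of Dync1i2 between the HD lines, which passed the threshold at -0.12. Depth limits Kif19a, Kif26a and Tuba3a, which had few counts in some lines, and 1 line per genotype limits all comparisons.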

Other observations

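Some members outside the naming rule were chosen after their values were seen. Kifc3, a minus-end motor of epithelial adherens junctions, was at 89.2, 92.6 and 99.1 CPM in control, at 101, 95.9 and 101 in HD-het and at 62.1, 55.8 and 75.3 in HD-homo libraries (HD-homo against control cells, log2 fold change -0.54 ± 0.09, adjusted p = 0.00050 by edgeR). Kif13a and Kif13b, a pair of related kinesin-3 motors, differed in direction in HD-het cells. Kif13a fell from 76.9, 73.9 and 73.7 CPM in control to 50.1, 48.3 and 48.3 in HD-het libraries (log2 fold change -0.61 ± 0.05, adjusted p = 1.5e-06). Kif13b rose from 14.0, 15.1 and 14.1 CPM to 25.1, 25.3 and 20.1 (log2 fold change 0.71 ± 0.10, adjusted p = 0.00011). Kif3b, the partner of Kif3a in kinesin-2, rose in HD-het cells from 67.3, 67.5 and 65.6 to 110, 109 and 103 CPM (log2 fold change 0.69 ± 0.05, adjusted p = 1.1e-06), whereas Kif3a had an adjusted p of 0.353 in that comparison. The roadblock light chain Dynlrb1 rose in HD-homo cells from 71.4, 71.4 and 81.5 to 99.2, 102 and 94.5 CPM (log2 fold change 0.40 ± 0.07, adjusted p = 0.00061). Among the cargo adaptors, Fez1, which binds kinesin-1, averaged 29.8 CPM in control, 15.4 in HD-het and 2.16 in HD-homo cells, and was lower in both HD lines.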
